A study of Mus musculus with 32 samples.

Results

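Col2a1, Col9a1, Col9a2, Col9a3, Col11a1, Col11a2 and Col27a1 encode the collagen chains that build the fibrils of cartilage. They were taken by symbol from the deposited count tables, as 7 of the 41388 genes listed there. Transcripts were counted in primary chondrocytes, the cells that make and maintain cartilage, taken from mouse femoral heads on postnatal day 21 and kept for 4 days in plastic wells with serum, never passaged. The groups were LG/J males, LG/J females, SM/J males and SM/J females, with 8 libraries each and 32 in all. Both are inbred strains, LG/J known for good and SM/J for poor healing of ear and cartilage wounds, and the study asked about pathways behind cartilage regeneration and degeneration. All groups shared the age, the tissue and the culture, and no treatment is named. The labels do not say whether the 8 libraries of a group came from separate animals or cultures, so a p-value here reflects only how far these libraries scatter, part of which may be technical.

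Cartilage fibrils are mixed polymers. Collagen II, made of Col2a1 chains, forms most of the fibril, collagen XI lies within it and limits its thickness, and collagen IX sits on its surface and links it to other matrix proteins. Collagen XXVII is a further fibril-forming collagen made by cartilage and needed for normal skeletal growth. Chains are transcribed in chondrocytes under the transcription factor Sox9 with its partners Sox5 and Sox6, folded with the help of chaperones such as Serpinh1, then secreted, trimmed and cross-linked.

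In the deposited tables, positions are on GRCm38. Col2a1 (ENSMUSG00000022483), the chain of collagen II, lies on the minus strand at chr15:97975602-98004695, and the other genes lie on plus strands. Col11a1 (ENSMUSG00000027966) is at chr3:114030540-114220718 and Col11a2 (ENSMUSG00000024330) at chr17:34039437-34066685, and both encode chains of collagen XI. The collagen IX chains are encoded by Col9a1 (ENSMUSG00000026147, chr1:24177610-24252684), Col9a2 (ENSMUSG00000028626, chr4:121039385-121055322) and Col9a3 (ENSMUSG00000027570, chr2:180597790-180622189). Col27a1 (ENSMUSG00000045672, chr4:63214004-63334991) encodes collagen XXVII. Exonic lengths ran from 3095 bases in Col9a2 to 13022 bases in Col27a1, in 31 to 67 merged exon blocks. Exons of Col9a3 overlap those of Tcfl5 on the opposite strand, and without strand information reads of this pair cannot be separated. Tcfl5 itself held 1872 reads over all libraries, 1.29% as many as Col9a3.

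RefSeq promoter sequences on GRCm38.p6 were available here for 5 of the 7 genes. The 250 bases before a RefSeq start, 5′ to 3′ on the plus strand, were looked at because the members varied together between libraries, as described further on. Of 6 such windows, the 4 that overlap no annotated exon are shown, for Col11a1, Col11a2, Col9a1 and Col27a1. The window of Col9a2 and a further window of Col9a1, before a start at chr1:24195203 (GC content 56%), overlap annotated exons and are not shown. The windows shown are chr3:114030290-114030539 for Col11a1, chr17:34038888-34039137 for Col11a2, chr1:24177360-24177609 for Col9a1 and chr4:63215162-63215411 for Col27a1. The Col27a1 window lies inside the gene's deposited span, since RefSeq places that start farther along. Capitals mark GGGCGG (written CCGCCC where it is read from the other strand) and the motif TATAAA.
Col11a1: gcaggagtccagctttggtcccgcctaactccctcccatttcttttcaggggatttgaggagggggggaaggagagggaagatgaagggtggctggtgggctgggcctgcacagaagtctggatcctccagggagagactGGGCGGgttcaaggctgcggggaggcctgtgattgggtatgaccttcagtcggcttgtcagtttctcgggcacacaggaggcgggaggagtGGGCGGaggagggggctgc
Col11a2: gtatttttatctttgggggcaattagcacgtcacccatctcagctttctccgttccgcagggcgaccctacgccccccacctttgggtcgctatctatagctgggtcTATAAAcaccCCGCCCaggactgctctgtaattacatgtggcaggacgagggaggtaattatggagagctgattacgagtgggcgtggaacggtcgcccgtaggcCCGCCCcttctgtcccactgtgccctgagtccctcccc
Col9a1: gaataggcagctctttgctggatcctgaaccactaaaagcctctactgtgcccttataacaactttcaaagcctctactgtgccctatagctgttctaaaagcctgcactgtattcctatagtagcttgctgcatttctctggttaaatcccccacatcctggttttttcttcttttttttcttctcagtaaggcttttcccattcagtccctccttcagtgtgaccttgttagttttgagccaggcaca
Col27a1: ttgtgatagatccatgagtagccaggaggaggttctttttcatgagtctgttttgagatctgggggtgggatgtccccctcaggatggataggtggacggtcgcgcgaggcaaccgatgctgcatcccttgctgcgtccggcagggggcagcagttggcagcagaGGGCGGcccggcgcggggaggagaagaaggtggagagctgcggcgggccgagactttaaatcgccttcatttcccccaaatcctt

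GGGCGG, the letters bound by SP1, began 110 and 19 bases before the start of Col11a1 and 85 bases before that of Col27a1. In the Col11a2 window it was found on the reverse strand at 133 and 38 bases, beside TATAAA at 143 bases. Col9a1 held neither. Letters bound by SOX factors were searched on both strands as ACAATGG, as the motif AACAAAG and as the shorter motif ACAAAG contained in the one before it, and were not in any of these 4 windows. Of 32851 mouse promoter windows of the same length, 32.7% held GGGCGG, 12.4% TATAAA, 3.02% ACAATGG, 5.03% AACAAAG and 16.5% ACAAAG. GC content was 62.4% for Col11a1, 57.6% for Col11a2, 59.6% for Col27a1 and 43.6% for Col9a1, against a median of 52.4% over all windows. A match is a description of letters, and its absence from a window says nothing of the factor.

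Total counts per library were 15840330 to 25571598. The 7 genes together took a median of 1.652% of all counts in LG/J libraries, with a range of 0.06928 to 2.386%, and of 1.164% in SM/J libraries, with a range of 0.648 to 1.628%. Between genes, levels were compared as RPKM, the reads per kilobase of exon relative to library size, here after TMM scaling of the libraries. Col2a1 had a median of 1519 RPKM over the 32 libraries and ranked 20 among all 41388 genes. It was followed by Col11a1 at 245.3 RPKM, Col9a1 at 173.3, Col9a3 at 59.52, Col11a2 at 35.3, Col9a2 at 32.16 and Col27a1 at 14.48 RPKM. The medians had the same order in each strain. Each of the first 4 genes of this order was above the next in 32 of 32 libraries, and Col9a2 was above Col27a1 in 31. Col11a2 was above Col9a2 in only 21 of the 32, so these neighbours could not be ordered. Within collagen XI, Col11a1 was thus far above Col11a2, and within collagen IX, Col9a1 was above Col9a3 and Col9a3 above Col9a2 in every library.

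For all 7 genes, the LG/J male and female libraries numbered 1 were far below the remaining 14 of their strain. Levels within a gene are given as CPM, counts relative to library size after TMM scaling. Col2a1 was at 1379 CPM in the LG/J male numbered 1, against a lowest, median and highest value of 8610, 10270 and 11400 CPM in the other 7 LG/J males. The LG/J female numbered 1 had 629.3 CPM, against 7536, 9955 and 14860 CPM in the other 7 LG/J females. Each of the 7 genes was below all other LG/J libraries in both. In males, the distance from the median of the other 7 was smallest for Col2a1, 7.45-fold, and largest for Col11a2, 53.4-fold (5.555 against 296.9 CPM). Among females it was also smallest for Col2a1, 15.8-fold, and largest for Col11a2, 72.4-fold (4.192 against 303.3 CPM). The other 5 genes lay 13.6- to 36.2-fold below the median in males and 23.3- to 33.6-fold below it in females. The strain differences of the members and the ratios between them are therefore given with and without these libraries. As both were the lowest of LG/J for each member, leaving them out raises the LG/J mean and narrows its spread by construction. An adjusted p without them describes the remaining libraries and is no independent support for a strain difference of the members.

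The same libraries differed in markers beyond the collagens. The summed level of 10 chondrocyte markers was 1273 CPM in the male and 1008 CPM in the female, where the remaining LG/J libraries spanned 7946 to 32360 CPM. All 10 were detected in every group. Spp1, which encodes osteopontin, was at 164300 to 180500 CPM in this pair, and no more than 13430 CPM elsewhere in LG/J. The cytokine Il6 was at 39.77 to 63.87 CPM in the pair, and no more than 0.9612 CPM elsewhere in LG/J. In bulk RNA, fewer chondrocytes and less collagen RNA per chondrocyte cannot be told apart. In 6 other libraries, LG/J females 4 and 5, SM/J males 2 and 3 and SM/J females 3 and 4, transcripts of both sexes were found, as Ddx3y or Xist at 10 CPM or more against the label. In addition, 6 pairs of libraries differed by 3.97 to 4.63 times sampling noise, where the next pair differed by 5.43 times and the median pair by 14.2 times. The pairs were numbers 2 with 3 and 4 with 5 in LG/J males, and 4 with 5 and 7 with 8 in LG/J females. In SM/J they were males 6 with 7 and females 3 with 4. These 6 were taken as close pairs by rank, without a threshold set beforehand.

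**Figure D1:**
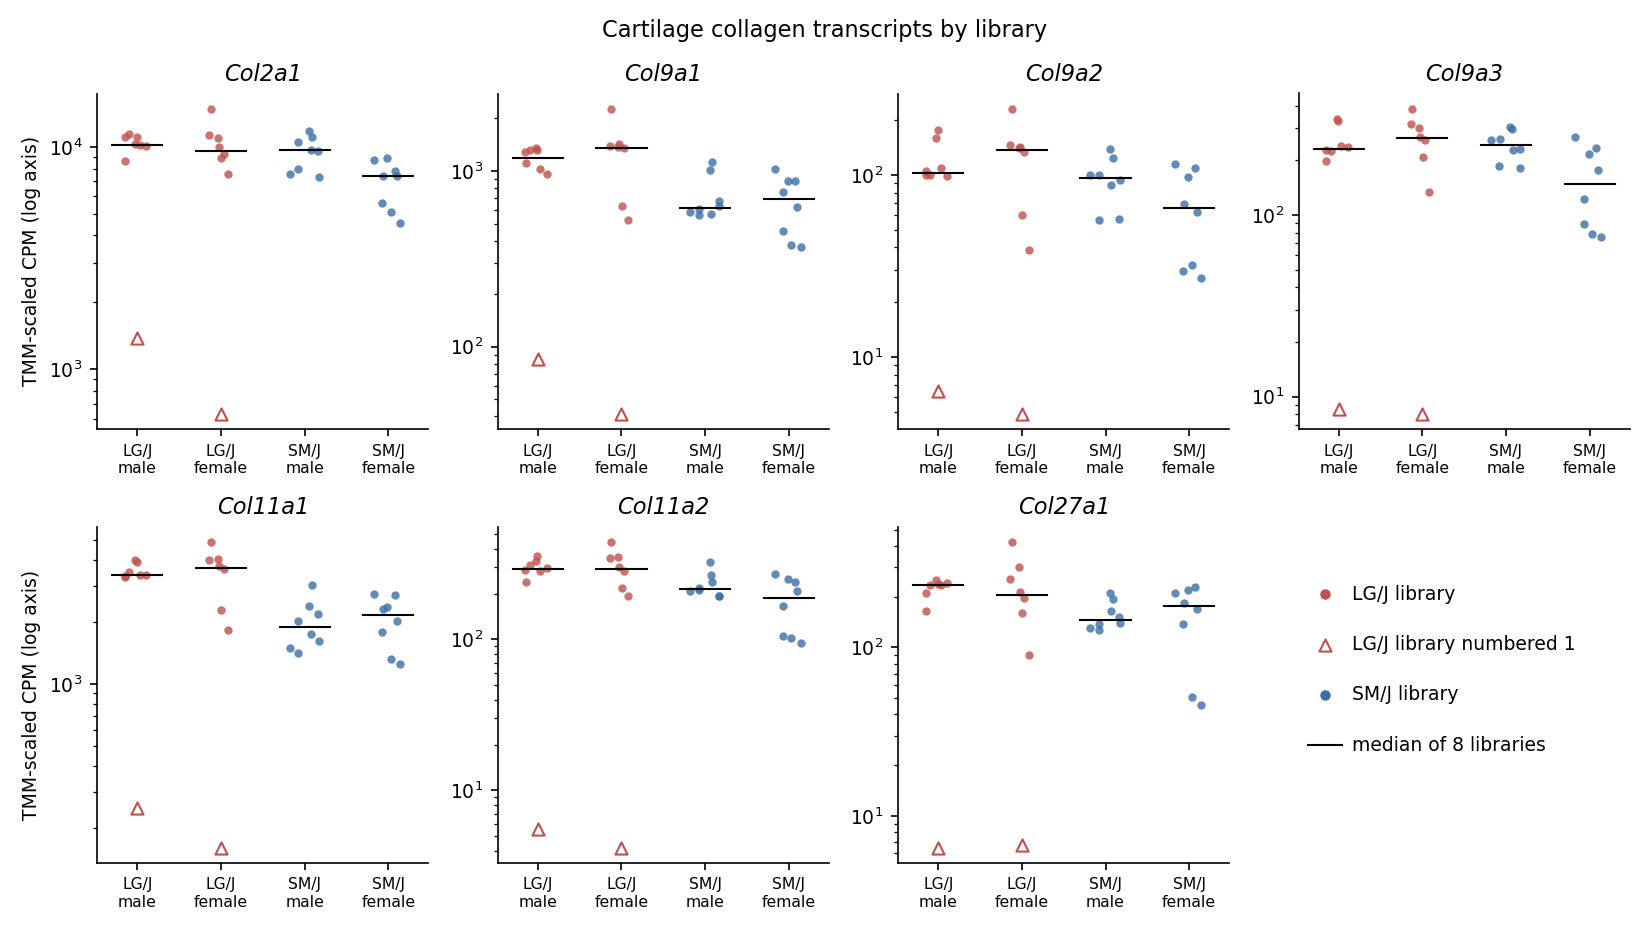
Level of each of the 7 collagen genes in each library, as TMM-scaled CPM on a log axis, by strain and sex. Points are libraries, bars are medians of 8 libraries, and white triangles are the LG/J libraries numbered 1, which lie below every other LG/J library in all 7 panels.

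Col2a1 had the smallest estimated strain difference of the 7 genes, with or without the libraries numbered 1. The next, Col9a3, was within the standard errors of it. By medians the order was reversed, with LG/J over SM/J at 1.071 for Col9a3 and 1.286 for Col2a1 in all libraries. Col2a1 had a lowest, median and highest level of 629.3, 10130 and 14860 CPM in the 16 LG/J libraries, against 4551, 7875 and 11830 CPM in the 16 SM/J libraries. The 14 LG/J libraries without those numbered 1 spanned 7536 to 14860 CPM with a median of 10220 CPM. The strains overlapped, and 1 LG/J library, the female numbered 2, was above the highest SM/J library. In all 32 libraries the log2 fold change of LG/J over SM/J was 0.19 ± 0.24 (SE; edgeR quasi-likelihood test, adjusted p = 0.613), which did not pass the threshold of 0.05. With both LG/J libraries numbered 1 left out, it was 0.36 ± 0.10 (adjusted p = 0.00758).

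Of the 7 genes, Col11a1, a chain of collagen XI, had the most LG/J libraries above every SM/J library. How often this occurs among all genes was not counted, here or for the other members. It had 160.4, 3438 and 4874 CPM (lowest, median and highest) in LG/J libraries, against 1244, 2016 and 3025 CPM in SM/J libraries. Of the 16 LG/J libraries, 12 were above the highest SM/J library, the LG/J females numbered 3 and 6 were inside the SM/J range at 1836 and 2274 CPM, and both numbered 1 were below it. The log2 fold change was 0.62 ± 0.28 in all libraries (adjusted p = 0.104) and 0.80 ± 0.13 without both numbered 1 (adjusted p = 2.22e-05), where the 14 LG/J libraries averaged 3511 ± 747 CPM and the 16 SM/J libraries 2022 ± 539 CPM (SD).

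Col11a2, the less abundant chain, had 4.192, 293.1 and 440.5 CPM in LG/J libraries, against 95.28, 211.7 and 326.3 CPM in SM/J libraries. LG/J libraries above all SM/J libraries numbered 5, and 13 of 16 were above the SM/J median. Its log2 fold change was 0.38 ± 0.35 (adjusted p = 0.456), and 0.57 ± 0.14 without the LG/J libraries numbered 1 (adjusted p = 0.00276).

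The chains of collagen IX all had estimates above 0, of different sizes. Col9a1 had 41.31, 1298 and 2262 CPM in LG/J libraries, against 368.7, 630 and 1127 CPM in SM/J libraries. Its LG/J median was thus 2.06 times the SM/J median, the widest such ratio of the 7 genes, and 9 LG/J libraries were above all SM/J libraries. The log2 fold change was 0.65 ± 0.31 (adjusted p = 0.124) in all libraries and 0.83 ± 0.18 (adjusted p = 0.000563) without both numbered 1.

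Col9a2 had 4.87, 107.3 and 230.7 CPM in LG/J libraries, against 27.29, 90.7 and 139.6 CPM in SM/J libraries. Its log2 fold change was 0.45 ± 0.34 (adjusted p = 0.351), and 0.63 ± 0.23 without both numbered 1 (adjusted p = 0.0358), with 6 LG/J libraries above all SM/J libraries. Col9a3 had 8.014, 238.8 and 385 CPM in LG/J libraries, against 75.57, 223.1 and 305.8 CPM in SM/J libraries. The strains' medians were 1.07-fold apart, and the log2 fold change was 0.23 ± 0.33 (adjusted p = 0.642). Of the 7 genes, Col9a3 did not pass without the LG/J libraries numbered 1 either (0.42 ± 0.17, adjusted p = 0.0624).

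Col27a1, the chain of collagen XXVII, had 6.502, 223.2 and 420.5 CPM in LG/J libraries, against 45.68, 157.8 and 229.3 CPM in SM/J libraries. In 8 LG/J libraries it was above every SM/J library. The log2 fold change was 0.36 ± 0.35 (adjusted p = 0.474), and 0.55 ± 0.20 (adjusted p = 0.0384) without both numbered 1.

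Over all 32 libraries, none of the 7 genes passed the edgeR test, while 29.9% of the 16136 genes tested were called, and 16.4% were called as higher in LG/J. Only Col9a1 and Col11a1 had an unadjusted p under 0.05. DESeq2 likewise called 0 of the 7, with 2 at an unadjusted p under 0.05, and limma voom with quality weights called these 2 as higher. All 7 estimates were above 0, with a median of 0.38 against 0.02 over all genes tested, and they stayed above 0 under DESeq2 size factors, upper-quartile factors and scaling by library size. Without both LG/J libraries numbered 1, the lowest of LG/J for each member, 6 of the 7 were called as higher in LG/J. In that fit 32.2% of genes were called and 17.1% called as higher. The median of the 7 estimates was then 0.57, against -0.0049 over all genes. Leaving out the LG/J female or the LG/J male numbered 1 alone was enough for Col11a1 (adjusted p = 0.0136 and 0.022) and Col9a1 (0.0222 and 0.0403) to pass, and no other single library changed a call among the 7. Without the 6 libraries of mixed sex transcripts as well, Col11a1, Col9a1, Col11a2 and Col2a1 passed, and with the close pairs summed instead, Col11a1, Col9a1 and Col11a2 did.

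**Figure D2:**
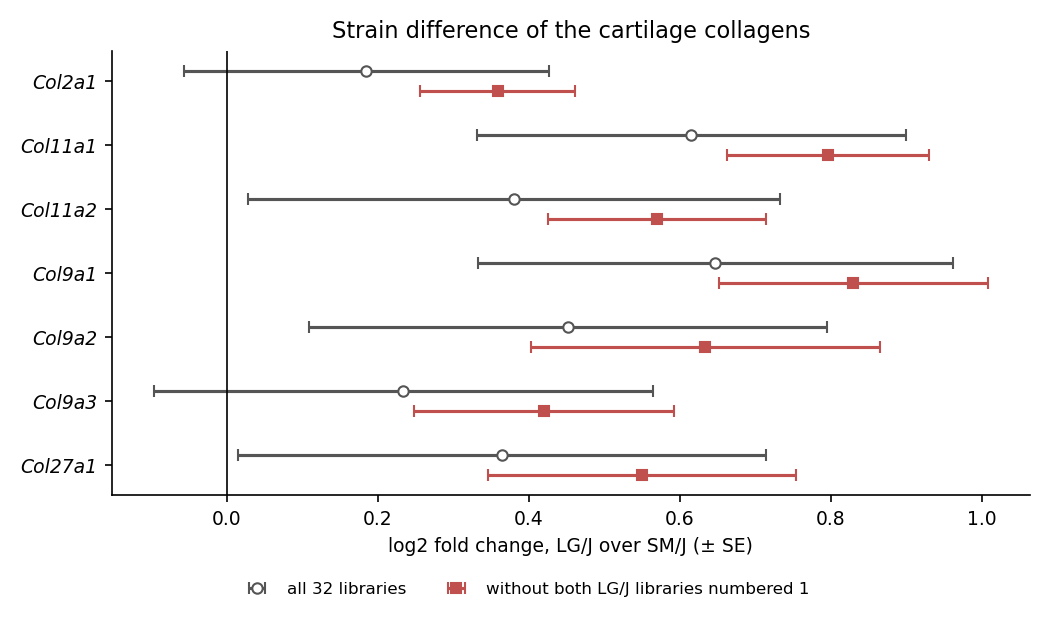
Log2 fold change of LG/J over SM/J for each gene, with its standard error, in all 32 libraries (white circles) and without both LG/J libraries numbered 1 (filled squares). All 14 estimates are above 0, and the standard errors are narrower without those libraries, for Col11a1 at 0.13 in place of 0.28.

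Within each sex, the strain difference was tested from the same fit. In males, LG/J over SM/J ranged from -0.11 for Col9a3 to 0.66 for Col11a1, and in females from 0.40 for Col27a1 to 0.74 for Col9a1. No member passed in either sex and none had an unadjusted p under 0.05, where 22.3% of genes were called in males and 13.4% in females. With both LG/J libraries numbered 1 left out, 2 members passed in males, Col11a1 (0.84 ± 0.19, adjusted p = 0.00136) and Col9a1 (0.73 ± 0.25, adjusted p = 0.0336), where 24.7% of genes were called. In females 5 passed, where 15.9% were called. These were Col2a1 (0.58 ± 0.15, adjusted p = 0.00484), Col11a1 (0.76 ± 0.19, adjusted p = 0.00484), Col11a2 (0.77 ± 0.20, adjusted p = 0.00875), Col9a1 (0.93 ± 0.25, adjusted p = 0.0101) and Col9a3 (0.77 ± 0.24, adjusted p = 0.03). With the 6 libraries of mixed sex transcripts left out and both numbered 1 kept, the median estimate of the members in females was 0.21, against 0.57 in all 32 libraries. In males it was 0.13, against 0.19, and 0 members passed in either sex. Leaving out both sets of libraries together was not tried within each sex. Col9a3 was at 8.585, 232.1 and 338.7 CPM (lowest, median and highest) in LG/J males, against 180.7, 244.6 and 305.8 CPM in SM/J males. In LG/J females it was at 8.014, 264.7 and 385 CPM, against 75.57, 149.2 and 270.4 CPM in SM/J females, so the medians were apart in females and close in males. For Col11a1 the medians were apart in both sexes, at 3388 CPM in LG/J males, against 1880 CPM in SM/J males, and at 3670 CPM in LG/J females, against 2164 CPM in SM/J females. The LG/J male numbered 1 had 249.2 CPM of Col11a1. The other 7 had 3304 CPM or more, above the SM/J males, which reached 3025 CPM. The share of all genes that separate these libraries was not counted. The strain differences of males and females were not shown to differ for any member, with or without both LG/J libraries numbered 1. That test called 0.0062% of genes, a single gene that is no member. For Col2a1 without both numbered 1, the strain difference in males minus that in females was -0.45 ± 0.21 (adjusted p = 0.442).

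Between the sexes, no member passed over both strains or within either strain in all 32 libraries, by edgeR or at an unadjusted p under 0.05. Genes called were 3.46% over both strains, 0.0496% within LG/J and 5.76% within SM/J. Within SM/J, Col2a1 had a lowest, median and highest level of 7344, 9683 and 11830 CPM in males, against 4551, 7422 and 8967 CPM in females. Its log2 fold change of males over females was 0.44 ± 0.34 (adjusted p = 0.546). It was 0.45 ± 0.14 in the fit without the LG/J libraries numbered 1 (adjusted p = 0.0445), a fit that uses the same SM/J libraries but a smaller estimate of spread, and in which 8.64% of genes were called. The SM/J females numbered 1, 3 and 4 were the 3 lowest SM/J libraries for Col2a1, at 5625, 4551 and 5078 CPM. Those numbered 3 and 4 are a close pair and hold transcripts of both sexes. Without all 6 libraries with such transcripts, the estimate was 0.26 ± 0.43 (adjusted p = 0.863).

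SM/J females 3 and 4 are 1 of the close pairs, at 4.14 times sampling noise, so they may not be separate observations. They were the lowest SM/J libraries for all 7 genes but Col9a2, for which the female numbered 1 lay between them. At 45.68 and 50.71 CPM of Col27a1, against 126.6 CPM or more in the other SM/J libraries, they stood farthest apart for this gene. Their summed level of chondrocyte markers was also the lowest in SM/J, at 5581 and 5442 CPM, against 11270 CPM or more. Among LG/J females, those numbered 3 and 6 were the lowest after number 1 for all 7 genes, with chondrocyte marker sums of 7946 and 9959 CPM. The part of chondrocyte content in these levels was not tested.

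Ratios between chains of the same library do not depend on how libraries are scaled. Per kilobase, the reads of Col11a1 were a median of 0.2078 times those of Col2a1 in LG/J libraries, with a range of 0.1123 to 0.2432, against a median of 0.1621 and a range of 0.1105 to 0.2154 in SM/J libraries. The log2 ratio was higher in LG/J by 0.36 ± 0.11 (SE; two-sided permutation test, 100000 resamples, p = 0.0034, adjusted p = 0.0238 over 7 ratios). Of the 16 LG/J libraries, 12 were above the SM/J median. Without both numbered 1 the difference was 0.44 ± 0.10 (adjusted p = 0.00126). It lost the threshold without the 6 libraries of mixed sex transcripts (0.31, adjusted p = 0.0625) and with the close pairs summed (0.30, adjusted p = 0.143). Summing those pairs while leaving out both numbered 1 brought it past the threshold again (0.40, adjusted p = 0.0218).

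By sex, the Col11a1 to Col2a1 ratio per kilobase had a median of 0.2078 in LG/J males, against 0.1245 in SM/J males, and of 0.2109 in LG/J females, against 0.1816 in SM/J females. The 7 LG/J males other than number 1 spanned 0.1875 to 0.2432 and all lay above the SM/J males, which spanned 0.1105 to 0.1687. In females the strains overlapped, at 0.1514 to 0.2421 in LG/J without number 1 and 0.1613 to 0.2154 in SM/J. Whether the ratio's strain difference itself differs between sexes was not tested.

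Col11a2 was set against Col2a1 in the same way. The Col11a2 to Col2a1 ratio per kilobase had a median of 0.02529 in LG/J and 0.02375 in SM/J libraries, and its log2 difference was -0.07 ± 0.22 in all libraries (adjusted p = 0.829). It was 0.24 ± 0.07 without both LG/J libraries numbered 1 (permutation test, adjusted p = 0.0109), which were at 0.003538 in the male and 0.005852 in the female. With the close pairs summed as well it was 0.23 (adjusted p = 0.0652). The sign of this difference thus rested on those libraries. Per kilobase, Col11a1 had a median of 8.12 times the reads of Col11a2 in LG/J and 6.97 times in SM/J libraries (log2 difference 0.43 ± 0.19, adjusted p = 0.0654). This ratio was 31.73 in the LG/J male and 27.07 in the LG/J female numbered 1. Without these libraries the difference was 0.20 ± 0.11 (adjusted p = 0.153).

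With all 32 libraries, ratios within collagen IX did not pass, though Col9a3 to Col9a2 passed in 4 of 32 tests with 1 library left out. Col9a3 had a median of 1.71 times the reads of Col9a2 per kilobase in LG/J and 2.04 times in SM/J libraries (log2 difference -0.26 ± 0.11, adjusted p = 0.0654), and Col9a1 had 6.06 times in LG/J and 5.56 times in SM/J libraries (0.18 ± 0.12, adjusted p = 0.29). The ratios Col9a2 to Col2a1 (0.17 ± 0.19, adjusted p = 0.513) and Col27a1 to Col2a1 (0.03 ± 0.20, adjusted p = 0.897) did not pass either. Without both numbered 1 none of these 4 ratios passed, with differences of -0.19 ± 0.11 for Col9a3 to Col9a2 (adjusted p = 0.153), 0.17 ± 0.12 for Col9a1 to Col9a2 (0.192), 0.28 ± 0.18 for Col9a2 to Col2a1 (0.153) and 0.22 ± 0.14 for Col27a1 to Col2a1 (0.153). As a share of all reads on the 7 genes, Col11a1 and Col11a2 together took a median of 23.91% in LG/J and 20.11% in SM/J libraries. The collagen IX genes took 10.01% in LG/J and 8.65% in SM/J libraries, and Col2a1 took 64.8% in LG/J and 71.32% in SM/J libraries.

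**Figure D3:**
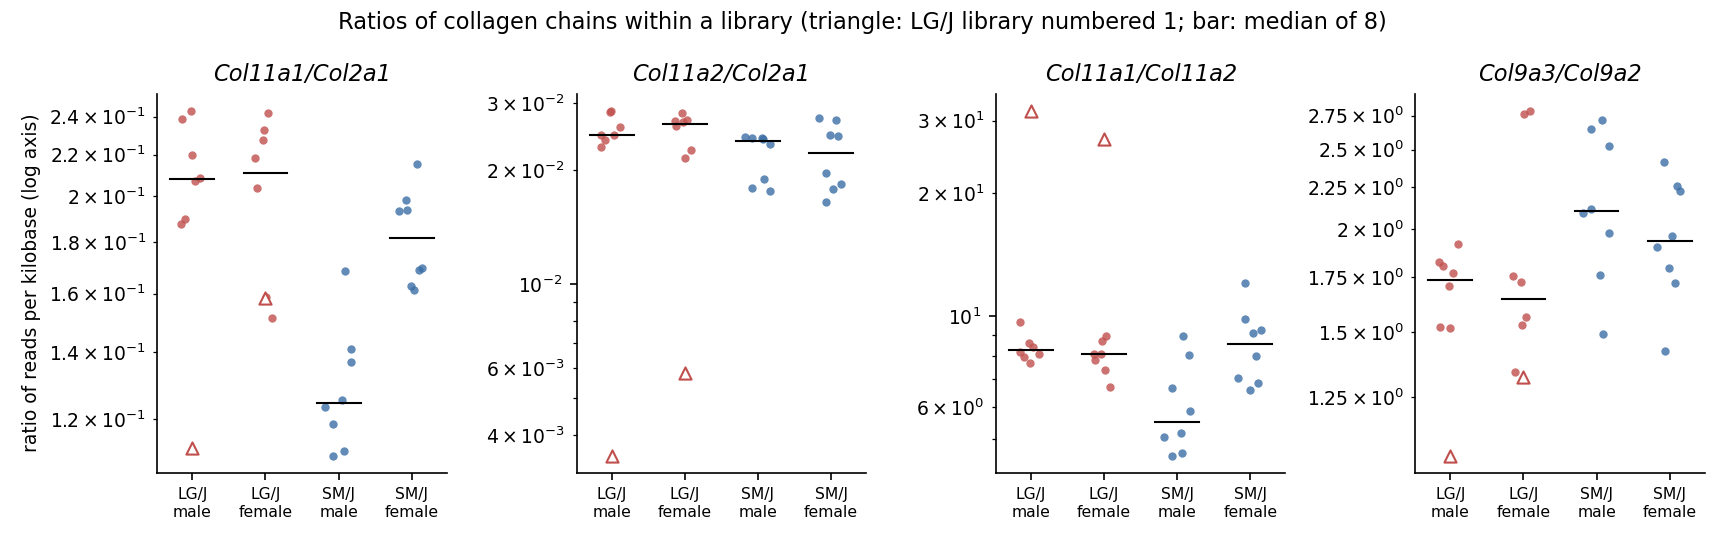
Ratio of reads per kilobase between chains of the same library, on log axes, by strain and sex. Points are libraries, bars are medians of 8, and white triangles are the LG/J libraries numbered 1. Col11a1 to Col2a1 is lowest in SM/J males (median 0.1245), and both triangles lie far above all other libraries for Col11a1 to Col11a2.

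Within groups, the 7 genes varied together from library to library. This was measured as the Pearson correlation of log2 CPM after each library's group mean was subtracted, over the 30 libraries without both LG/J libraries numbered 1, and is a description, since the libraries share their scaling, hold the close pairs and may share cultures. Over the 21 pairs of members, r ran from 0.708 to 0.948 with a median of 0.851, and Spearman's rho from 0.629 to 0.939. With the close pairs averaged to leave 24 libraries, r ran from 0.696 to 0.95. Without the 2 libraries farthest from the median of 1 gene of the pair, it ran from 0.624 to 0.939. The highest values were for Col9a3 with Col11a2 (0.948), Col9a1 with Col11a1 (0.942) and Col9a2 with Col9a3 (0.926). The lowest were for Col9a3 with Col11a1 (0.708) and Col2a1 with Col9a2 (0.733). The 2 most alike pairs thus joined chains of different collagens. Col11a1 and Col11a2 correlated less with each other (0.795) than each did with 1 or more chains of collagen IX.

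**Figure D4:**
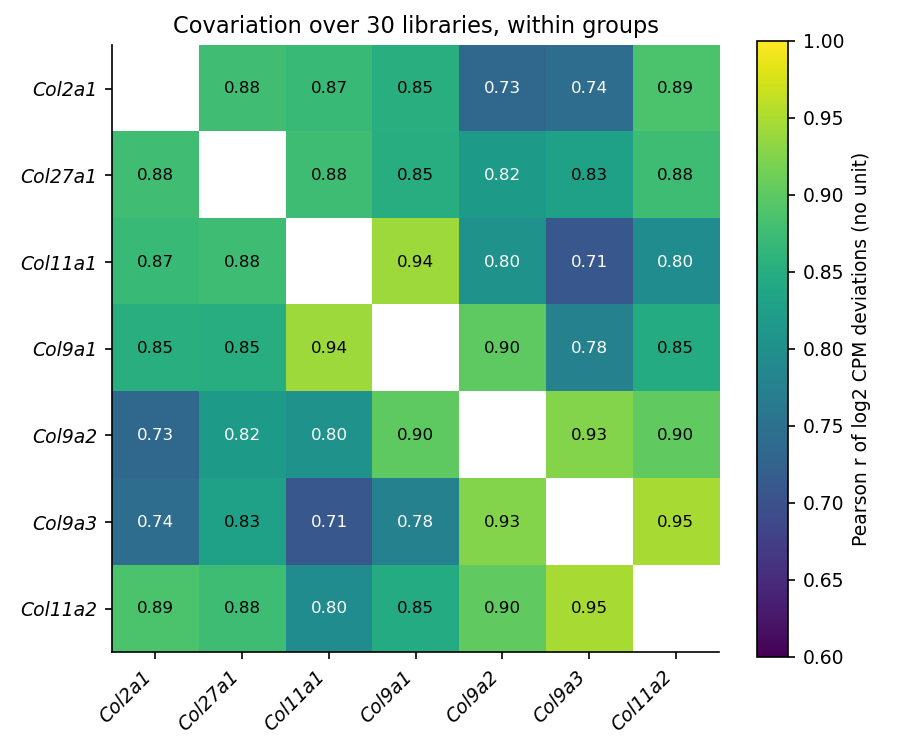
Pearson correlation between members over 30 libraries, from log2 CPM with group means subtracted. Col9a3, Col9a2 and Col11a2 form pairs at 0.90 to 0.95, and Col9a1 with Col11a1 is at 0.94. Col9a1 with Col9a2 is also at 0.90, and Col9a3 with Col11a1 is lowest at 0.71.

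Other genes also followed the members closely. Among 8357 genes whose log2 CPM averaged 3 or more, Col2a1 was most like Usp11, a deubiquitinase (r = 0.891), then Flywch2 (0.867) and Gpt2, an alanine aminotransferase (0.848). Col11a1 was most like Cnmd, which encodes the cartilage protein chondromodulin (0.932), then Usp11 (0.929) and Nek1 (0.923). For Col11a2 the nearest were Acan, the gene of the cartilage proteoglycan aggrecan (0.893), Snorc, a small cartilage proteoglycan (0.883), and Zfp385b (0.882). Col9a1 was nearest to Cmtm5 and Zfp385b (0.919 each) and Acan (0.913). Col9a2 was nearest to Hapln1, the linker of aggrecan to hyaluronan (0.94), Papss2, which makes the sulfate donor for proteoglycans (0.936), and Fam136a (0.927). For Col9a3 they were Dhx58os (0.928), Fgfr3, a growth factor receptor of chondrocytes (0.921), and Gramd2 (0.917), and for Col27a1 they were Atf4, Phf10 and Arl14ep (0.927 each). Among the SOX trio, Sox9 had r of 0.611 to 0.82 with the members, Sox6 of 0.514 to 0.835 and Sox5 of -0.046 to 0.298. Spearman's rho was 0.398 to 0.622 for Sox9, 0.411 to 0.786 for Sox6 and -0.158 to 0.286 for Sox5. By r, Sox9 ranked from 118 for Col27a1 to 391 for Col11a2 among the 8357 genes. The other members ranked from 1, as Col9a3 did for Col11a2, to 332, as Col9a3 did for Col11a1. For Col27a1 they ranked from 37 to 123, so other genes followed it more closely than any member did.

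Counts of called genes in the lists that follow are to be read against all genes tested, of which 29.9% were called and 16.4% called as higher in LG/J in all 32 libraries, and 32.2% and 17.1% without both numbered 1. Sox9 averaged 456 ± 147 CPM in LG/J libraries and 330 ± 59.6 CPM in SM/J libraries (SD, n = 16 each) and was higher in LG/J (0.47 ± 0.15, adjusted p = 0.0163), also without both numbered 1 (0.59 ± 0.10, adjusted p = 1.85e-05). Sox6 averaged 127 ± 40.2 CPM in LG/J libraries and 98.8 ± 20.3 CPM in SM/J libraries, and passed only without both numbered 1 (0.37 ± 0.16, adjusted p = 0.0844, against 0.52 ± 0.08, adjusted p = 9.17e-06). Sox5 averaged 55.2 ± 17 CPM in LG/J libraries and 56 ± 7.67 CPM in SM/J libraries and did not pass (-0.02 ± 0.11, adjusted p = 0.907). Thus 1 of the 3 was higher and 0 lower, with a median of 0.37 against 0.02 over all genes, and 2 were higher without both numbered 1.

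Serpinh1, the chaperone of newly folded collagen, was lower in LG/J. It had 483.2, 2702 and 3187 CPM in LG/J libraries, against 7352, 11770 and 16260 CPM in SM/J libraries, with no overlap. The share of all genes without overlap was not counted. The log2 fold change was -2.32 ± 0.19 (adjusted p = 1.52e-11) and -2.18 ± 0.12 without both numbered 1 (adjusted p = 1.27e-15). Within groups it correlated with all 7 members, at r of 0.674 with Col9a3 to 0.874 with Col27a1. Of 22 genes of collagen folding and secretion, all tested, 3 were higher and 3 lower in LG/J, with a median of -0.08, and 6 were higher and 3 lower without both numbered 1. Colgalt2, which adds galactose to collagen, was higher (1.53 ± 0.27, adjusted p = 4.58e-05), as was Creb3l2, a transcription factor of the secretory pathway (0.36 ± 0.07, adjusted p = 0.00034), and both remained so without both numbered 1 (1.69 and 0.41).

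Other collagen genes were counted in the same fit. Of 7 other fibril-forming collagens 1 was higher and 1 lower in LG/J (median -0.18). Col5a2 was lower, at 525.9 ± 236 CPM in LG/J libraries and 891 ± 415 CPM in SM/J libraries (-0.77 ± 0.22, adjusted p = 0.00691). Col24a1 was called as higher (1.20 ± 0.45, adjusted p = 0.0455), at 11.65 to 14.9 CPM in the LG/J libraries numbered 1 and at most 3.254 CPM in the other LG/J libraries, and without them it was not called (0.11 ± 0.28, adjusted p = 0.806). Of 8 further fibril-associated and network collagens, Col16a1 was higher at a low level, 14.3 ± 4.13 CPM in LG/J libraries and 6.63 ± 1.55 CPM in SM/J libraries (1.10 ± 0.12, adjusted p = 4.98e-09), 0 were lower, and the median was 0.0034. Without both numbered 1, 2 of these 8 were higher and 1 lower.

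Genes that trim, bind, sense or cut the fibrils were counted next, and most did not pass. Of 13 genes of procollagen trimming and cross-linking 12 were tested, 0 were higher and 1 lower in LG/J (median 0.0042), and 1 was higher and 2 lower without both numbered 1. The lower one was Loxl1, a lysyl oxidase (-0.76 ± 0.16, adjusted p = 0.00034, and -0.79 without both numbered 1). Of 15 fibril-bound matrix partners 4 were higher and 2 lower (median 0.42), and 6 were higher and 3 lower without both numbered 1. Hapln1 averaged 2086 ± 943 CPM in LG/J libraries and 1042 ± 418 CPM in SM/J libraries (1.00 ± 0.27, adjusted p = 0.00434). Matn2, a matrilin of many tissues, was higher too (0.45 ± 0.14, adjusted p = 0.0116), and the matrilin Matn4 was lower (-1.28 ± 0.36, adjusted p = 0.00763). These 3 passed without both numbered 1 too, at 1.16, 0.48 and -1.48.

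Among 7 collagen receptors 2 were higher and 2 lower in LG/J, with a median of -0.07, and the counts were the same without both numbered 1. Itga10, the integrin chain of chondrocytes that binds collagen II, was higher at 26.2 ± 9.63 CPM in LG/J libraries and 17.4 ± 5.45 CPM in SM/J libraries (0.59 ± 0.18, adjusted p = 0.0137). The discoidin domain receptor Ddr2, which binds collagen II, was higher (0.30 ± 0.08, adjusted p = 0.00666) and Ddr1 lower (-0.69 ± 0.14, adjusted p = 0.000408). Without both numbered 1 they passed as well, Itga10 at 0.69, Ddr2 at 0.20 (adjusted p = 0.0122) and Ddr1 at -0.59. Of 7 collagenases and related proteases 6 were tested, and 1 was higher and 1 lower (median -0.10). Mmp14 was lower (-0.50 ± 0.16, adjusted p = 0.0166), also without both numbered 1 (-0.63, adjusted p = 0.00104). Mmp3 was called as higher (2.54 ± 0.98, adjusted p = 0.0498), at 27410 to 35070 CPM in the LG/J libraries numbered 1 and at most 1038 CPM in the other LG/J libraries, and without them it was not called (-1.16 ± 0.60, adjusted p = 0.148).

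Markers of endothelium, fat cells, muscle and red blood cells were low. Summed over their lists, markers of endothelium reached at most 8.031 CPM, of fat cells 3.498 CPM, of muscle 16.99 CPM and of red blood cells 0.9748 CPM in any library. The 8 markers of fibroblasts or dedifferentiated cells summed to 366.1, 1403 and 4000 CPM (lowest, median and highest) in LG/J libraries, against 1045, 2201 and 5736 CPM in SM/J libraries. Of these, 1 was higher and 3 lower in LG/J, where 16.4% of all genes were called as higher and 29.9% in either direction. Their sum was highest in SM/J females 3 and 4, a close pair, at 5736 and 5532 CPM, beside chondrocyte marker sums of 5581 and 5442 CPM. The 2 sums were not opposed throughout. SM/J female 1 had 5390 beside 12700 CPM, and LG/J female 2 had 4000 beside 32360 CPM, the highest of LG/J for both. The LG/J libraries numbered 1 were the lowest of LG/J for both. The 6 osteoblast markers summed to 143.8, 463.2 and 2056 CPM in LG/J, against 338.6, 645.3 and 1942 CPM in SM/J libraries, and 1 was higher. The 8 macrophage markers summed to 10.62, 42.63 and 628.7 CPM in LG/J, against 34.7, 92.95 and 577.1 CPM in SM/J libraries. In the LG/J male and female numbered 1 the sum was 154.9 and 152.1 CPM, although 6 of the 8 were under 1 CPM in both. Cd68 was at 148.4 to 151.2 CPM in this pair. Elsewhere in LG/J it had a median of 32.04 and a highest value of 226.1 CPM. Of the 6 macrophage markers tested, 4 were lower in LG/J in females and 0 in males, where 13.4% of all genes were called in females and 22.3% in males. The 10 chondrocyte markers summed to 1008, 25210 and 32360 CPM in LG/J libraries, against 5442, 15710 and 29920 CPM in SM/J libraries, and 3 of them were higher and 0 lower in LG/J, with 5 higher without both numbered 1, where 17.1% of all genes were. Their part in the strain difference of the collagens was not tested.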

How the data were processed

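RNA of the 32 libraries had been made into SMARTer libraries, per the labels' protocols, and STAR 2.0.4b, featureCounts 1.45 of Subread and the build GRCm38 are named per the submitters' processing notes. Which annotation and strand setting served for counting is not given in the sources used here. As deposited, the tables hold a whole-number count per gene and library, with CPM and RPKM beside it, and both of these deposited units were recomputed from the counts and matched. Only the counts were used below. Symbols were found for 40254 of 41388 IDs in a table of gene names.

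Genes were filtered with filterByExpr, which kept 16136, scaled with TMM and fitted with the robust quasi-likelihood model of edgeR 4.0.16 in R 4.3.3, with 1 mean per strain and sex over all 32 libraries. Benjamini-Hochberg adjustment ran over all genes kept, and a gene was called under 0.05. The contrasts set LG/J against SM/J over both sexes and within each, male minus female over both strains and within each, and the strain difference in males minus that in females. An SE is the size of a log2 fold change over the square root of its F statistic. Ratios between members are log2 ratios of counts plus 0.5, tested with scipy 1.17.1 in a two-sided permutation test of 100000 resamples and adjusted over 7 ratios. Correlations used log2 CPM with a prior count of 2. The fit was also run on simulated counts, drawn independently for each library. They held no outlying libraries, close pairs or mixed sex transcripts, so that run cannot show how these affect the calls.

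The members, gene lists, markers and tests were chosen with earlier results of these data known. The rule for named genes took the 7 members, the SOX trio and Serpinh1 whatever their result, up to 3 called genes of each list by smallest p, and the 3 genes most correlated with each member. Spp1, Il6, Tcfl5 and Cd68 were named after their values were seen. Alternatives were other scalings and filters, DESeq2 1.42.0, quality-weighted voom of limma 3.58.1, a block for library number, summed close pairs, and leaving out single libraries, both LG/J libraries numbered 1 or the 6 with transcripts of both sexes.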

Additional observations from a re-analysis of the deposited data

Results flagged for a closer look

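In groups of 8 libraries, a library was singled out when its gap to the nearest other was too wide a share of the group's range on the CPM scale by Dixon's 95% criterion, which chance meets in about 1 of 20 groups. Of 28 combinations of gene and group, 7 met it, all of them the LG/J male numbered 1 as the lowest of its group. Its level was 1379 CPM for Col2a1, 249.2 CPM for Col11a1, 5.555 CPM for Col11a2, 85.28 CPM for Col9a1, 6.502 CPM for Col9a2, 8.585 CPM for Col9a3 and 6.502 CPM for Col27a1. The nearest other LG/J males were at 8610, 3304, 242.1, 961.4, 98.95, 199.4 and 165.5 CPM for these genes in the same order. The 7 genes vary together, so these are not 7 independent events. The LG/J female numbered 1 was lower still for all but Col27a1 and did not meet the criterion.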

How the results depend on the processing

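Apart from Col9a3 at -0.020 without the 6 libraries of mixed sex transcripts, all 7 members had strain estimates above 0 over both sexes under each scaling, filter, tool, block and left-out library tried. Leaving out both LG/J libraries numbered 1 brought 6 members past the threshold, Col2a1 (0.36), Col9a1 (0.83), Col9a2 (0.63), Col11a1 (0.80), Col11a2 (0.57) and Col27a1 (0.55). Leaving out these and the 6 libraries kept 4 past it, Col2a1 (0.29), Col9a1 (0.69), Col11a1 (0.69) and Col11a2 (0.40), and summing the close pairs without both numbered 1, an alternative chosen after seeing the data, kept 3, Col9a1 (0.76), Col11a1 (0.72) and Col11a2 (0.51). Quality weights brought Col9a1 (0.65) and Col11a1 (0.67) past it. With single libraries left out, Col9a1 ran from 0.53 to 0.74 (adjusted p 0.0222 to 0.215) and Col11a1 from 0.55 to 0.71 (0.0136 to 0.161).

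In males the strain estimate became 0.13 for Col2a1 and 0.074 for Col9a3 without both numbered 1, and 0.0034 for Col2a1 and -0.00010 for Col9a2 without the 6 libraries. In females that of Col27a1 became -0.093 without the 6 libraries. Between the sexes within SM/J, the estimate became -0.053 for Col9a1 and -0.26 for Col27a1 without the 6 libraries, and -0.10 for Col27a1 with the close pairs summed. None of these estimates passed before or after. Col11a1 to Col2a1 was 0.31 without the 6 libraries and 0.30 with close pairs summed, no longer past the threshold, and 0.40, past it, with close pairs summed and both numbered 1 left out. Col11a2 to Col2a1 became 0.24, past the threshold, without both numbered 1 and 0.23, not past it, with close pairs summed as well, Col9a2 to Col2a1 became -0.082 without the 6 libraries, and Col27a1 to Col2a1 became -0.23 without the 6 libraries and -0.13 with close pairs summed. With single libraries left out, Col11a1 to Col11a2 ran from 0.32 to 0.48 (0.20 without both numbered 1), Col9a3 to Col9a2 from -0.31 to -0.22, Col11a2 to Col2a1 from -0.10 to 0.10 and Col27a1 to Col2a1 from -0.030 to 0.16. In these 32 permutation tests, Col11a1 to Col11a2 passed in 5 (adjusted p 0.0212 to 0.117 over all 32) and Col9a3 to Col9a2 in 4 (0.0221 to 0.117).

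Over all genes, the sex difference over both strains called 922 genes without both numbered 1 and 31 with close pairs summed, against 558. Within SM/J it called 1402 without both numbered 1, 490 without the 6 libraries and 184 with close pairs summed, against 929, and within LG/J 3 with close pairs summed, against 8. The difference between strain differences called 0 genes without the 6 libraries and with close pairs summed, against 1. The cause of these shifts was not tested.

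Library numbers were not taken to pair libraries: 30 of 48 same-numbered pairs correlated above 0.1, and 7 of 32 libraries correlated best with their own number. With the number as a replicate block, 0 members were called over both sexes, with a median of 0.18. In males the estimate became -0.13 for Col9a2 and -0.11 for Col11a2, and between the sexes within SM/J 0.055 for Col11a1. The block called 1052 genes between the sexes over both strains, 1433 within SM/J, and 0 for the difference between strain differences.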
